A study of Mus musculus with 4 samples.

Results

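The oxytocin receptor gene *Oxtr* and 9 genes of the smooth muscle contractile apparatus (*Acta2*, *Actg2*, *Myh11*, *Cnn1*, *Tagln*, *Lmod1*, *Des*, *Smtn* and *Synm*) were followed through the cell classes of the mouse mammary gland. These 10 of the 28693 genes in the count tables were picked by name for a known function of basal cells, contraction in response to oxytocin. For 1 of them, *Oxtr*, the fall in basal cells of LATS1/2-KO glands was already part of the reason for the choice, so its values there are given as a description with no test. The others were tested within fits across all genes wherever they passed the filter on low counts.

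Basal cells of the mammary epithelium, also called myoepithelial cells, lie as an outer layer around the luminal cells that make milk. At milk let-down, oxytocin binds OXTR, a receptor that couples to Gq proteins and phospholipase C, and the calcium that is then released lets calmodulin switch on myosin light chain kinase. Smooth muscle myosin then pulls on actin filaments, and the cell shortens and presses milk into the ducts. Pericytes and smooth muscle cells around blood vessels carry much of the same machinery, and myofibroblasts carry some of it.

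Single cells of 4 mouse mammary gland preparations were counted with the 10x Genomics 3′ method, 1 library per mouse. There were 2 control mice, CTL 1 and CTL 2, and 2 mice with deletion of *Lats1* and *Lats2*, LATS1/2-KO 1 and LATS1/2-KO 2, all adult nulliparous females. The study asked how loss of these Hippo pathway kinases in luminal cells changes the epithelium and the stroma around it.

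All 4 mice were homozygous for the floxed alleles Lats1f/f and Lats2f/f and carried the reporter R26-lsl-EYFP, which makes EYFP after Cre has removed a stop cassette. CTL 1 and CTL 2 were heterozygous for the reporter and had no Cre. LATS1/2-KO 1 was heterozygous and LATS1/2-KO 2 homozygous for it, and both carried Krt8-CreERT2, in which the *Krt8* promoter drives a tamoxifen-dependent Cre in luminal cells. Mice received 2 mg of tamoxifen in the abdominal cavity on each of 5 days, controls included, and glands were taken 7 days after the last dose. Whether any gated basal or stromal cell came from a cell with an active *Krt8* promoter was not tested.

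The 4914, 3515, 4499 and 5272 cells kept in CTL 1, CTL 2, LATS1/2-KO 1 and LATS1/2-KO 2 held 46810771, 42630666, 38792520 and 44758376 UMIs (unique molecular identifiers, each a counted RNA molecule). The median cell held 7443.5, 10141, 6724 and 5962.5 UMIs in the same order. Pairs of libraries shared 4 to 12 barcodes, at most 0.267% of the smaller library. Replicates are separate mice, so every group has n = 2, and the smallest p that an exact two-sided permutation test over 2 against 2 libraries can give is 0.333.

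The deleted genes were still counted in LATS1/2-KO glands. In luminal cells *Lats1* stood at 24.05 and 23.99 CPM (counts per 10⁶ UMIs of the class) in CTL 1 and CTL 2 and at 15.3 and 16.4 CPM in LATS1/2-KO 1 and 2. *Lats2* stood at 13.8 and 15.1 CPM in CTL and at 27.9 and 30.5 CPM in LATS1/2-KO, the opposite direction. Reads of a 3′ library come from the end of a transcript, and tags outside the deleted part of a gene do not check the deletion. The reporter *EYFP* stood at 0.289 and 0.339 CPM in luminal cells of CTL 1 and CTL 2 and at 92.9 and 143 CPM in those of LATS1/2-KO 1 and 2. It was found in 22.4% and 29.2% of luminal cells of LATS1/2-KO and in 0.296% and 0.437% of those of CTL. In basal cells *Lats1* stood at 20.7, 24.3, 35.5 and 25.9 CPM, *Lats2* at 37.7, 27.7, 23.3 and 31.7 CPM and *EYFP* at 1.89, 3.46, 4.77 and 7.72 CPM, in the order CTL 1, CTL 2, LATS1/2-KO 1, LATS1/2-KO 2. *EYFP* was thus higher in basal cells of both LATS1/2-KO libraries than of either CTL library, from 1, 2, 9 and 20 counts, and was found in 0.637%, 1.44%, 2.73% and 3.61% of basal cells. Immune cells held it at 0, 0, 3.65 and 5.18 CPM. Whether Cre had acted in these basal cells was not tested.

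Each cell was given a class from marker genes that hold none of the 10 members. It took the class with the highest marker score where that score reached 0.2 and led the next by 0.05. This gave 157, 139, 330 and 443 basal cells in CTL 1, CTL 2, LATS1/2-KO 1 and LATS1/2-KO 2, and 4397, 3202, 3217 and 2900 luminal cells. Fibroblasts numbered 59, 24, 315 and 944 in that order, perivascular cells 16, 5, 25 and 53, endothelial cells 41, 34, 230 and 231, and immune cells 188, 82, 245 and 441. A further 482 of the 18200 cells were given no class.

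All 7 of 7 basal markers were detected in basal cells of every library, with a summed level of 4333 and 4083 CPM in CTL 1 and CTL 2 and 6355 and 5961 CPM in LATS1/2-KO 1 and 2, and *Krt14* the most abundant. The rise of the sum came with the keratins, while 2 other markers of the list were lower. *Krt5* stood at 847 and 878 CPM in CTL and 1263 and 1290 CPM in LATS1/2-KO, *Trp63* at 139.5 and 100.5 against 72.1 and 66.8 CPM, and *Il17b* at 145 and 203 against 104 and 122 CPM. The class was made from that score, so these levels are not independent of it. Of the 1069 basal cells, 45 lay near the limits of the gate. The median luminal score of basal cells was 0.103 and 0.0984 in CTL and 0.191 and 0.142 in LATS1/2-KO. Luminal markers (7 of 7 detected, *Krt8* most abundant) summed to 988 and 909 CPM in basal cells of CTL 1 and CTL 2 and to 2045 and 1453 CPM in those of LATS1/2-KO 1 and 2. In clusters made without the members and pathway genes, all basal cells of both CTL libraries fell in one cluster and 99.1% and 98.9% of those of LATS1/2-KO in another, so basal cells of the 2 groups differed in far more than the 10 genes.

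In control glands the members fell into 2 patterns, genes highest in basal cells and genes highest in perivascular cells. *Oxtr*, *Actg2*, *Cnn1* and *Smtn* had their highest mean level in basal cells. *Acta2*, *Myh11*, *Tagln*, *Lmod1*, *Des* and *Synm* had theirs in perivascular cells, of which CTL 1 and CTL 2 held 16 and 5. *Oxtr* stood at 313 and 320.4 CPM in basal cells, at 6.84 and 2.64 CPM in luminal cells, and gave 0 to 2 counts in each CTL library in fibroblasts, perivascular, endothelial and immune cells. Among the other 5 classes, those next to each other in the order of *Oxtr* levels all overlapped. For *Actg2* and *Smtn* the basal and perivascular levels overlapped as well, and for *Synm* the basal and endothelial levels did.

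*Des*, which encodes the muscle intermediate filament protein desmin, was the exception among the 10 in basal cells. It gave 0 counts in 157 basal cells of CTL 1 and in 139 of CTL 2, with 3 counts corresponding to 5.66 and 5.20 CPM, and 2 counts and 1 count in LATS1/2-KO 1 and 2. In perivascular cells it stood at 695 and 1174 CPM in CTL and at 415 and 666 CPM in LATS1/2-KO. No fold is given for *Des* in basal cells, since both groups lie at or under 3 counts.

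Against luminal cells of the same control mice, 8 of the 10 members were higher in basal cells by the edgeR quasi-likelihood test with Benjamini-Hochberg adjustment over 14290 genes, with 14.1% of genes tested called higher and 21.1% lower. The log2 differences ran from 3.12 ± 0.168 (SE) for *Smtn* to 7.94 ± 0.0969 for *Acta2*, with 5.98 ± 0.171 for *Oxtr*, 7.60 ± 0.135 for *Myh11*, 7.90 ± 0.145 for *Cnn1*, 6.80 ± 0.0975 for *Tagln*, 6.84 ± 0.168 for *Lmod1* and 5.93 ± 0.392 for *Synm*. Each of these 8 was higher in basal than in luminal cells in 2 of 2 CTL libraries. *Actg2*, with 31 and 23 counts in basal and 5 and 7 in luminal cells, entered this test only through basal cells, so it is not counted and has no fold here. *Des* did not pass (adjusted p = 0.389). The members had been picked as basal genes, so this comparison describes how far apart the 2 classes stood.

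**Figure D1:**
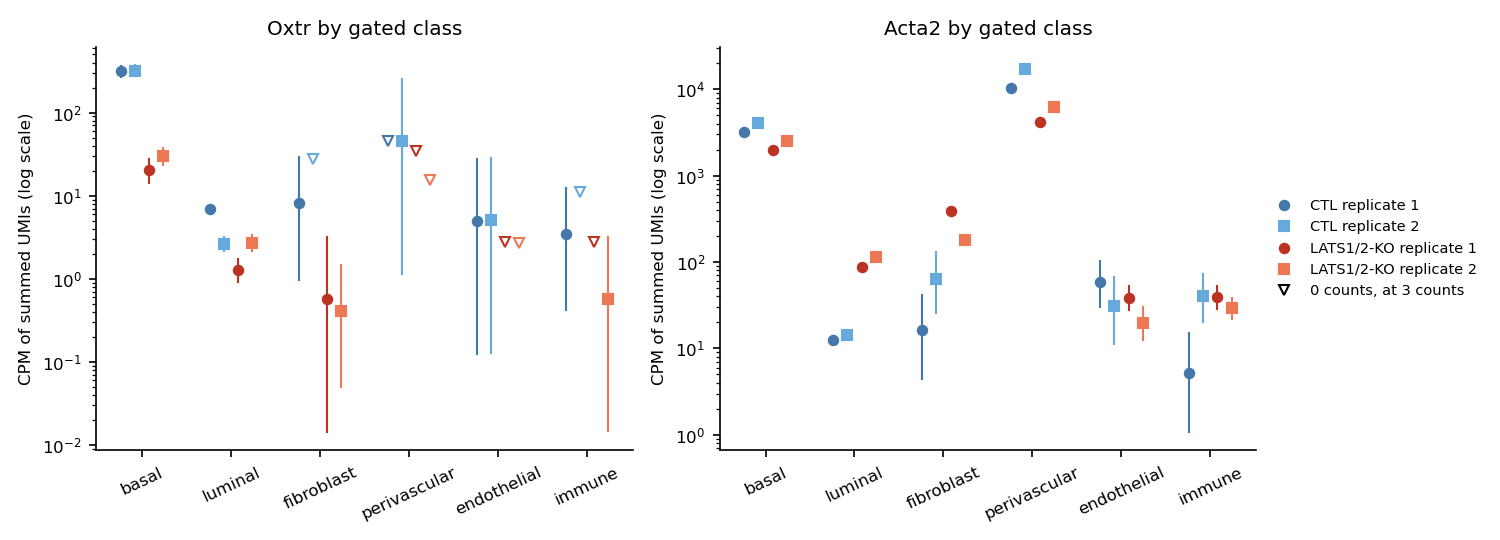
Levels of *Oxtr* (left) and *Acta2* (right) in each gated class and library, in CPM of UMIs summed per class on a log axis. Points are libraries, vertical lines are 95% Poisson intervals of the counts, and open triangles mark libraries with 0 counts, drawn at the level of 3 counts. *Oxtr* in basal cells stands at 313 and 320.4 CPM in CTL and 20.1 and 29.7 CPM in LATS1/2-KO, and *Acta2* is highest in perivascular cells.

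Basal cells of LATS1/2-KO glands held less RNA of the oxytocin receptor and of most of the contractile genes. The fold changes below come from a fit across 8826 genes with libraries scaled by edgeR's TMM method, while levels are plain CPM. Of the 9 members other than *Oxtr*, 8 passed the filter on low counts, and *Des* did not. *Synm* passed it only through CTL, so it has no fold or call below. Of the other 7, each of which passed through either group alone, 6 were called lower in LATS1/2-KO, none was called higher and 1 was not called, where 16.2% of all genes tested were called lower and 17.0% higher. The count describes the members that could be tested.

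*Oxtr* stood at 313 and 320.4 CPM in basal cells of CTL 1 and CTL 2 and at 20.1 and 29.7 CPM in those of LATS1/2-KO 1 and 2, from 166, 185, 38 and 77 counts. Every CTL library lay above every LATS1/2-KO library, and the mean level was 12.7-fold lower in LATS1/2-KO. In LATS1/2-KO libraries *Oxtr* was still higher in basal than in luminal cells, at 1.26 and 2.71 CPM. Perivascular cells of LATS1/2-KO 1 gave 0 *Oxtr* counts, but 3 counts there would be 34.6 CPM, above the basal level of that library, so the order of these 2 classes is not settled there. Without LATS1/2-KO 1 its fitted log2 fold change was -3.54, and without LATS1/2-KO 2 it was -4.07, against -3.75 with both.

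Of the 2 smooth muscle actins, 1 passed the test, and the difference between them was not tested. *Acta2*, which encodes smooth muscle α-actin, the most widely used marker of myoepithelial cells, stood at 3219 and 4098 CPM in CTL 1 and CTL 2 and at 1972 and 2495 CPM in LATS1/2-KO 1 and 2. The groups did not overlap, and the log2 fold change was -0.82 ± 0.166 (SE, adjusted p = 0.000692), lower in 2 of 2 LATS1/2-KO libraries. *Actg2*, which encodes smooth muscle γ-actin, stood at 58.5 and 39.8 CPM in CTL and at 61.0 and 57.5 CPM in LATS1/2-KO. Those ranges overlap, and the log2 difference of 0.16 ± 0.237 did not pass (adjusted p = 0.639).

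*Myh11* encodes the heavy chain of smooth muscle myosin, the motor that pulls on these actins. Its level was 505 and 702 CPM in basal cells of CTL 1 and CTL 2 and 149 and 178 CPM in those of LATS1/2-KO 1 and 2. Both LATS1/2-KO libraries lay below both CTL libraries, with a log2 fold change of -1.99 ± 0.172 (adjusted p = 1.92e-08).

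Among the 4 members that bind actin filaments, calponin showed the widest gap. *Cnn1*, the gene of calponin 1, which binds actin and restrains myosin, stood at 502 and 646 CPM in CTL and at 47.2 and 75.7 CPM in LATS1/2-KO. The groups were far apart, with a log2 fold change of -3.32 ± 0.1995 (adjusted p = 1.04e-10). *Lmod1*, the gene of leiomodin 1, which starts new actin filaments in smooth muscle, stood at 313 and 381 CPM in CTL and at 56.2 and 66.004 CPM in LATS1/2-KO, again without overlap. Its log2 fold change was -2.61 ± 0.170 (adjusted p = 3.24e-10).

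*Tagln*, which encodes transgelin (SM22α), an actin cross-linking protein, stood at 2174 and 2738 CPM in CTL 1 and CTL 2 and at 1024 and 963 CPM in LATS1/2-KO 1 and 2. The groups did not overlap and the log2 fold change was -1.41 ± 0.159 (adjusted p = 7.53e-07). *Smtn*, the gene of smoothelin, an actin-binding protein of contractile smooth muscle, stood at 119 and 175 CPM in CTL and at 92.8 and 90.3 CPM in LATS1/2-KO. Its log2 fold change was -0.79 ± 0.183 (adjusted p = 0.00207), lower in 2 of 2 libraries. The call for *Smtn* rested on CTL 2, since without that library the log2 fold change was -0.51 and the adjusted p 0.118.

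Of the 2 intermediate filament genes, *Des* was near absent from basal cells, and *Synm* was lower in LATS1/2-KO. *Synm* encodes synemin, which ties intermediate filaments to other parts of the cytoskeleton. It stood at 49.0 and 74.5 CPM in basal cells of CTL 1 and CTL 2 and at 4.77 and 8.11 CPM in those of LATS1/2-KO 1 and 2, from 26, 43, 9 and 21 counts. The groups did not overlap. Both LATS1/2-KO levels lie under 8.12 CPM, the minimum of the filter in this fit, so no fold or call is printed.

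**Figure D2:**
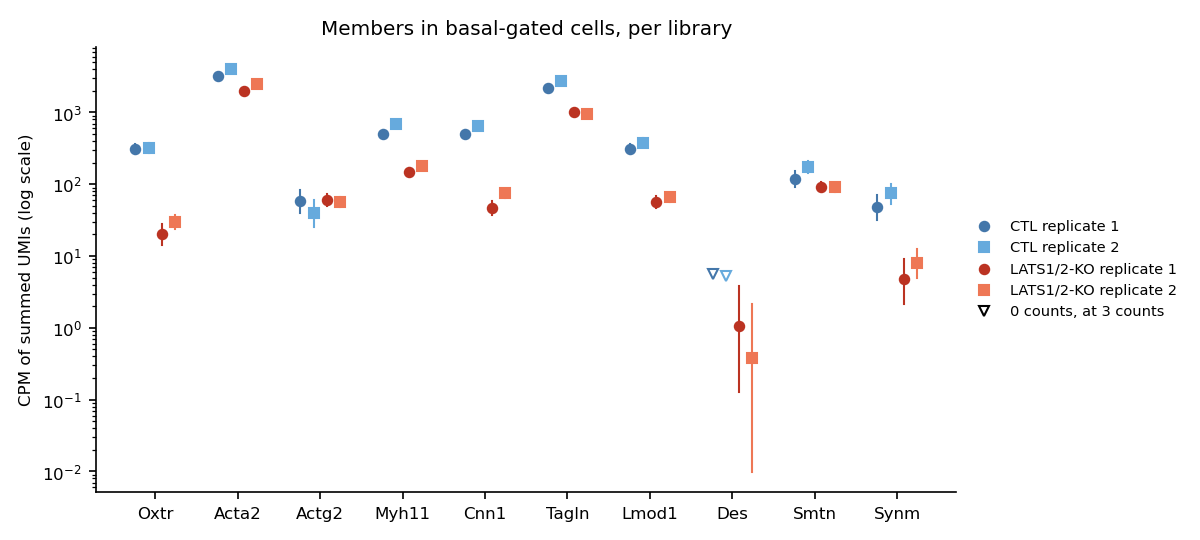
Levels of the 10 members in basal cells of each library, in CPM of summed UMIs on a log axis. Points are libraries, lines are 95% Poisson intervals of the counts, and open triangles mark libraries with 0 counts, drawn at the level of 3 counts. The groups overlap for *Actg2*, and *Des* lies at or under 3 counts in both groups.

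Taken as a sum, the 10 genes made up 0.725% and 0.918% of all UMIs of basal cells in CTL 1 and CTL 2 and 0.343% and 0.396% in LATS1/2-KO 1 and 2. The sum includes *Oxtr*, whose fall was known beforehand. *Acta2* supplied 44.4% and 44.7% of these member UMIs in CTL and 57.5% and 63.0% in LATS1/2-KO, so the make-up of the group shifted toward *Acta2* while its sum was lower.

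Single basal cells also held fewer of the 10 transcripts. Cells were thinned to 2000 UMIs, and cells with fewer were left out. This kept 136 and 130 basal cells of CTL 1 and CTL 2 and 317 and 418 of LATS1/2-KO 1 and 2. Shares after thinning, here and below, are of the cells kept. The median basal cell then had a UMI of 4 of the 10 members in both CTL 1 and CTL 2 and of 2 in both LATS1/2-KO libraries. Cells with at least 3 members made up 83.1% and 92.3% of basal cells in CTL and 30.0% and 31.1% in LATS1/2-KO. Basal cells without any member made up 1.47% and 0.769% in CTL and 11.0% and 15.8% in LATS1/2-KO. The 10 members include *Oxtr*, whose fall in basal cells was known beforehand. These numbers per cell thus follow in part from the choice of the members and are a description. They were not worked out without *Oxtr*. Among luminal cells, 89.8%, 90.9%, 82.0% and 82.7% had none, in the order CTL 1, CTL 2, LATS1/2-KO 1, LATS1/2-KO 2.

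The share of thinned basal cells with an *Oxtr* UMI was 41.9% (95% Clopper-Pearson interval 33.5% to 50.7%) in CTL 1, 42.3% (33.7% to 51.3%) in CTL 2 and 2.52% (1.10% to 4.91%) in LATS1/2-KO 1. In LATS1/2-KO 2 it was 4.07%. Immune cells, which gave no *Oxtr* UMI at this depth in any library, set the background from free RNA. The intervals cover counting error only, and before thinning the median immune cell held 2685.5, 3054, 4153 and 3216 UMIs and the median basal cell 3272, 3763, 5430 and 5282, in the order CTL 1, CTL 2, LATS1/2-KO 1, LATS1/2-KO 2.

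*Acta2* was found in 95.6% and 96.2% of thinned basal cells in CTL and in 73.5% and 62.4% in LATS1/2-KO. In immune cells it was found in 0.662%, 2.78%, 6.97% and 3.69%, so the basal shares lay far above background in each library. For *Cnn1* the basal shares were 55.9% and 61.5% in CTL and 7.26% and 9.09% in LATS1/2-KO, with at most 0.308% in immune cells of any library. *Myh11*, *Tagln*, *Lmod1*, *Smtn* and *Synm* were each found in a smaller share of basal cells in both LATS1/2-KO libraries than in either CTL library. *Actg2* shares overlapped between the groups, at 8.09% and 6.15% in CTL and 8.83% and 5.98% in LATS1/2-KO. Basal cells of LATS1/2-KO were the deeper ones, and without thinning the *Smtn* shares overlapped, at 29.3% and 44.6% in CTL and 37.6% and 39.7% in LATS1/2-KO.

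**Figure D3:**
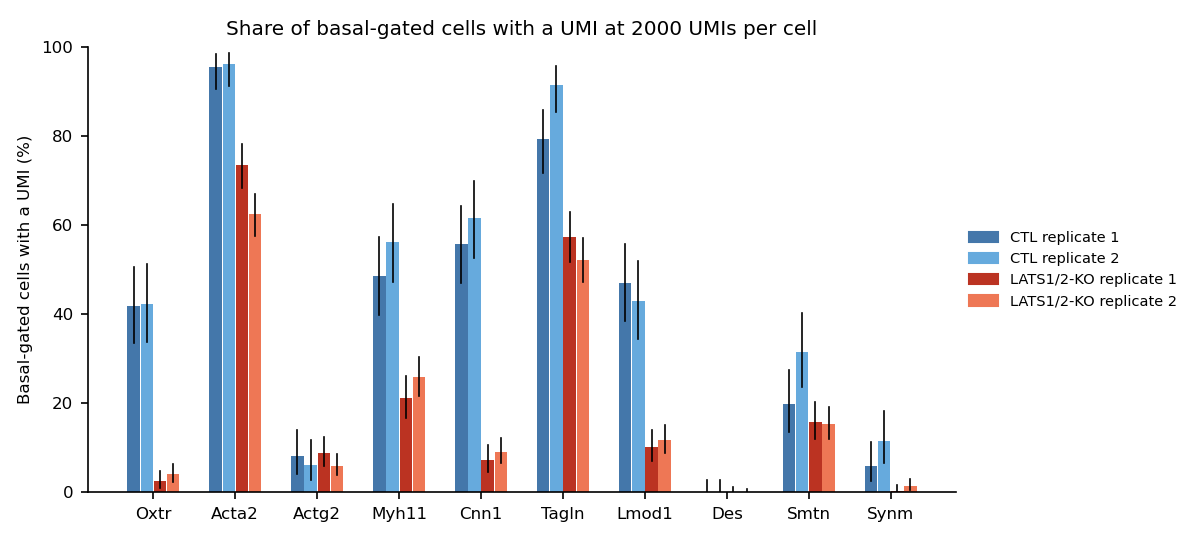
Share of basal cells with at least 1 UMI of each member, among cells thinned to 2000 UMIs, in percent. Cells with fewer UMIs were left out. Bars are libraries and black lines are exact 95% Clopper-Pearson intervals. For *Oxtr* the bars stand at 41.9% and 42.3% in CTL and at 2.52% and 4.07% in LATS1/2-KO.

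In CTL basal cells, some members were found more often and some less often in cells with an *Oxtr* UMI. *Lmod1* was found in 57.9% and 54.5% of the 57 and 55 thinned cells with an *Oxtr* UMI in CTL 1 and CTL 2 and in 39.2% and 34.7% of the cells without one. *Smtn* was found in 31.6% and 41.8% of cells with *Oxtr* and in 11.4% and 24% of cells without. *Actg2* was found in 5.26% and 3.64% of cells with *Oxtr* and in 10.1% and 8% of cells without, and *Myh11* in 45.6% and 54.5% with and 50.6% and 57.3% without. *Acta2*, *Tagln* and *Synm* differed in direction between CTL 1 and CTL 2, and *Des* was found in none. For *Cnn1* the shares lay on both sides as well, at 57.9% against 54.4% in CTL 1 and 60.0% against 62.7% in CTL 2. In LATS1/2-KO only 8 and 17 thinned cells held an *Oxtr* UMI, and there *Actg2* was found in 12.5% and 11.8% of cells with *Oxtr* against 8.74% and 5.74% without, *Myh11* in 25% and 52.9% against 21.04% and 24.7%, and *Lmod1* in 12.5% and 0% against 10.03% and 12.2%. Also more frequent there in cells with *Oxtr* were *Acta2* (100% and 70.6% against 72.8% and 62.1%), *Tagln* (62.5% and 82.4% against 57.3% and 50.9%) and *Smtn* (25% and 17.6% against 15.5% and 15.2%). *Cnn1* differed in direction between LATS1/2-KO 1 and 2, and *Synm* was found in none of the cells with *Oxtr*. Cells of 1 library are not replicates and these shares were not tested.

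Markers of other cells moved with the basal result and are given for their whole lists. Besides the luminal markers, fibroblast markers summed to 206, 213, 369 and 426 CPM in basal cells of CTL 1, CTL 2, LATS1/2-KO 1 and LATS1/2-KO 2, with *Dcn* the most abundant in CTL, *Col1a1* in LATS1/2-KO, and 5, 4, 7 and 7 of 7 genes detected. Myofibroblast markers summed to 294, 359, 1203 and 1180.3 CPM, most of it *Postn*, with 2, 2, 5 and 5 of 5 detected. Perivascular markers, those of the other contractile class, summed to at most 13.8 CPM in basal cells of any library, and their part was not tested. The 6 members called lower kept their calls in basal cells with a luminal score under 0.2, a limit chosen after seeing the data, and in basal cells without an *EYFP* UMI. The second setting left out only 9 of 330 and 16 of 443 basal cells of LATS1/2-KO 1 and 2. It could hardly change a call, and a cell without an *EYFP* UMI is not shown to lack Cre activity. The part of the fibroblast and myofibroblast markers in the result was not tested.

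Luminal cells, the class in which Krt8-CreERT2 is expressed, held low levels of the contractile genes, and a few of these rose. An *EYFP* UMI was found in 22.4% and 29.2% of luminal cells of LATS1/2-KO 1 and 2. Whether Cre had acted in the other luminal cells was not tested, so the class is not read as wholly deleted. Of the 9 members that passed the filter, 4 were higher in LATS1/2-KO and 1 was lower, where 30.6% of all 14581 genes tested were called higher and 28.4% lower by the same test, so the share of members called was near the background. Luminal cells of the 2 groups lay in almost wholly different clusters, the largest of them with 0, 1, 1157 and 1357 cells of CTL 1, CTL 2, LATS1/2-KO 1 and LATS1/2-KO 2. The median log2 fold change was -0.52 over these 9, -0.06 over the 8 without *Oxtr* and 0.0024 over all genes tested. The TMM factors of the luminal sums were 0.921, 0.933, 1.07 and 1.09 in CTL 1, CTL 2, LATS1/2-KO 1 and LATS1/2-KO 2, so fitted rises are smaller than ratios of plain CPM.

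*Acta2* gave the clearest change in luminal cells, at 12.4 and 14.1 CPM in CTL 1 and CTL 2 and 88.0 and 114 CPM in LATS1/2-KO 1 and 2. The groups did not overlap, the log2 fold change was 2.71 ± 0.148 (adjusted p = 0.000258), and both LATS1/2-KO libraries were higher. Immune cells, which should lack it, held 5.21 and 40.8 CPM in CTL and 39.2 and 29.4 CPM in LATS1/2-KO. The LATS1/2-KO luminal level was thus above that of immune cells in both libraries, while the CTL luminal level was not above it in CTL 2. By cells thinned to 2000 UMIs, *Acta2* was found in 1.88% and 1.59% of luminal cells in CTL and in 8.28% and 7.84% in LATS1/2-KO, next to 6.97% and 3.69% of LATS1/2-KO immune cells.

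The rise of *Acta2* was present in both luminal subtypes, split by their own markers. Its level in hormone-sensing luminal cells was 14.1 and 8.39 CPM in CTL and 107 and 63.1 CPM in LATS1/2-KO. In secretory luminal cells it was 11.4 and 18.1 CPM in CTL and 81.2 and 120 CPM in LATS1/2-KO. Each LATS1/2-KO library lay above each CTL library in both subtypes.

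*Cnn1* (2.18 and 2.08 CPM in CTL, 3.91 and 4.51 CPM in LATS1/2-KO), *Tagln* (18.5 and 20.8, then 30.1 and 30.5 CPM) and *Smtn* (13.0 and 16.9, then 26.3 and 25.2 CPM) were also called higher, with log2 fold changes of 0.76, 0.41 and 0.57 and adjusted p of 0.0167, 0.0124 and 0.0179. Their groups did not overlap. In immune cells of CTL, *Cnn1* ranged from 0 to 3.47 CPM, *Tagln* from 11.1 to 19.1 CPM and *Smtn* from 1.74 to 3.71 CPM. The CTL luminal levels of *Cnn1* and *Tagln* are therefore not clearly above background, while those of *Smtn* lay above the immune levels. The calls were less stable than that of *Acta2*. Without CTL 1 the adjusted p was 0.0604 for *Cnn1*, 0.0695 for *Tagln* and 0.0544 for *Smtn*. *Cnn1* also lost its call without CTL 2 (0.0802) or LATS1/2-KO 2 (0.0650), and *Tagln* and *Smtn* lost theirs without LATS1/2-KO 1 (0.0527 and 0.0692). In secretory luminal cells alone none of the 3 passed, and *Tagln* had a fitted log2 fold change of -0.11 (adjusted p = 0.510), although its plain levels were 23.2 and 30.8 CPM in CTL and 31.8 and 31.5 CPM in LATS1/2-KO. In hormone-sensing luminal cells *Tagln* stood at 10.8 and 6.70 CPM in CTL and 24.5 and 18.6 CPM in LATS1/2-KO (log2 fold change 1.22, adjusted p = 0.0194), and *Smtn* at 10.8 and 13.3 against 20.8 and 22.4 CPM (0.73, adjusted p = 0.0167), both without overlap, while *Cnn1* did not pass.

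*Myh11* was called lower in luminal cells, at 2.84 and 2.64 CPM in CTL and 2.15 and 1.77 CPM in LATS1/2-KO (log2 fold change -0.70, adjusted p = 0.0360). Immune cells held 3.47, 11.1, 2.74 and 4.61 CPM in the 4 libraries, so the luminal level is at or below background and is not read as expression. The call was lost without CTL 1 (0.153), CTL 2 (0.0932) or LATS1/2-KO 2 (0.135).

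*Oxtr* in luminal cells stood at 6.84 and 2.64 CPM in CTL 1 and CTL 2 and at 1.26 and 2.71 CPM in LATS1/2-KO 1 and 2. These ranges overlap, and the log2 fold change of -1.48 ± 0.563 did not pass (adjusted p = 0.0690). Without CTL 2 it passed (-2.02, adjusted p = 0.0138). In secretory luminal cells, which held most of these counts, it stood at 10.2 and 3.84 CPM in CTL and 1.53 and 3.06 CPM in LATS1/2-KO, without overlap, and passed with a log2 fold change of -1.95 (adjusted p = 0.0128).

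*Lmod1*, *Des* and *Synm* stood at no more than 3.09 CPM in luminal cells of any library and did not pass. *Actg2* gave 5, 7, 14 and 6 counts and did not pass the filter on low counts.

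Basal keratin RNA moved with the luminal result. In luminal cells the 7 basal markers summed to 17.4 and 11.6 CPM in CTL and to 1745 and 1366 CPM in LATS1/2-KO, with all 7 detected in every library and *Krt14* making up 1639 and 1265 CPM of the LATS1/2-KO sums. The defining basal marker *Trp63* stood at 4.29 and 1.69 CPM in CTL and at 0.646 and 0.451 CPM in LATS1/2-KO. In luminal cells with a basal score under 0.2, a limit chosen after seeing the data, *Acta2* stayed called and *Tagln* lost its call (log2 fold change 0.28, adjusted p = 0.0527).

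Markers of fibroblasts and myofibroblasts, which hold *Acta2* and *Tagln* themselves, moved with the luminal result too. In luminal cells the 5 myofibroblast markers, all detected in every library, summed to 18.6 and 16.4 CPM in CTL, with *Cthrc1* most abundant, and to 180 and 164 CPM in LATS1/2-KO, with *Postn* most abundant at 84.6 and 76.7 CPM. The 7 fibroblast markers, all detected in every library, summed to 56.8 and 280.1 CPM in CTL and to 398 and 316 CPM in LATS1/2-KO, with *Dcn* most abundant in all but LATS1/2-KO 2, where it was *Col1a1*. Their part in the luminal result was not tested.

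Within LATS1/2-KO luminal cells, those with an *EYFP* UMI held more *Acta2* than those without. *Acta2* stood at 138 and 155 CPM in *EYFP*-positive cells of LATS1/2-KO 1 and 2 and at 63.2 and 82.8 CPM in *EYFP*-negative cells. The positive cells were higher in 2 of 2 libraries, with a log2 difference of 1.01 ± 0.0735 that passed the threshold. Of the 9 members tested, 2 were higher and 2 lower in positive cells, where 21% of 13178 genes were called higher and 22.0% lower. *Oxtr* was the other higher gene, at 1.57 and 3.72 against 1.11 and 1.95 CPM, higher within each library although the ranges overlap (log2 difference 0.77, adjusted p = 0.0383).

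*Tagln*, at 28.1 and 24.5 CPM in positive and 31.1 and 35.1 CPM in negative cells, was lower in positive cells (log2 difference -0.34, adjusted p = 0.00414). *Myh11*, at 1.57 and 1.12 against 2.44 and 2.26 CPM, was lower too (-0.82, adjusted p = 0.0376) and lies at the background level. Positive cells were deeper, with medians of 13506 and 15183 UMIs against 7272 and 7204 in negative cells. With cells thinned to 2000 UMIs *Acta2* kept its call (log2 difference 0.91), *Tagln* lost its call (adjusted p = 0.488), and *Oxtr* and *Myh11* no longer passed the filter on low counts, so these 2 were not tested at equal depth. *Cnn1*, *Lmod1*, *Des*, *Smtn* and *Synm* did not pass at full depth, and *Actg2* was not tested.

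**Figure D4:**
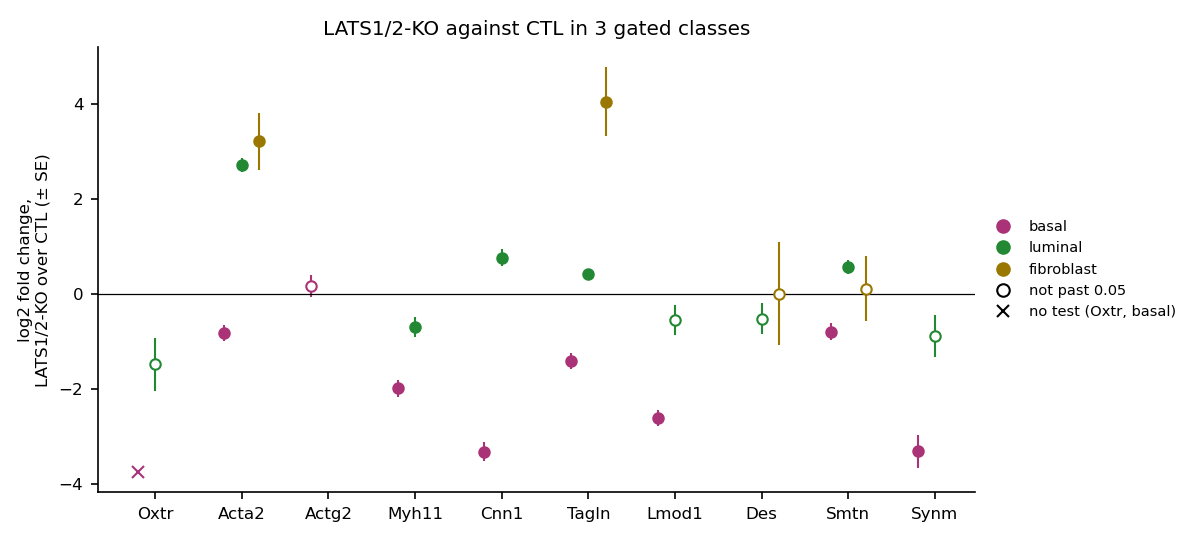
Log2 fold change of LATS1/2-KO over CTL for each member in basal, luminal and fibroblast cells, with ± 1 SE from the edgeR fit over 2 libraries per group. Filled points passed the adjusted threshold of 0.05, open points did not, and *Oxtr* in basal cells is drawn as a cross since it was given no test. *Synm* in basal cells and *Tagln* in fibroblasts passed the filter through 1 group only, so neither the fill nor the exact position of their points is to be read as a result. *Acta2*, *Cnn1*, *Tagln* and *Smtn* lie below 0 in basal cells and above 0 in luminal cells.

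The change between CTL and LATS1/2-KO was tested against itself in the 2 epithelial classes. The difference of the log2 fold changes, basal minus luminal, was -3.34 ± 0.108 (SE) for *Acta2*, -3.90 ± 0.209 for *Cnn1*, -1.64 ± 0.114 for *Tagln* and -1.17 ± 0.189 for *Smtn*, and each passed the edgeR quasi-likelihood test with Benjamini-Hochberg adjustment. These 4 members fell in basal cells and rose in luminal cells, where the rises of the last 3 were the unstable ones described above. The difference was also negative and passed for *Myh11* (-1.09), *Lmod1* (-1.89) and *Synm* (-2.33), while *Actg2* and *Des* did not pass. For *Myh11* the luminal side of it comes from levels at or below background. So the difference was negative and passed for 7 of the 9 members other than *Oxtr*, where 8.49% of 14290 genes were called lower and 14.6% higher. The median difference was -1.64 over these 9 and 0.16 over all genes, and 0.06 over all genes with RLE scaling in place of TMM. Without CTL 2 the call for *Synm* was lost (-1.58, adjusted p = 0.0960).

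In fibroblasts the CTL libraries gave few counts, and 2 members stood higher in LATS1/2-KO. *Acta2* gave 4 and 7 counts in the 59 and 24 fibroblasts of CTL 1 and CTL 2 and 690 and 877 counts in LATS1/2-KO 1 and 2, which is 16.1 and 63.9 CPM against 391 and 179 CPM. *Tagln* gave 4 counts, 1 count, 569 and 564 counts, which is 16.1 and 9.12 CPM against 322 and 115 CPM. Neither gene overlapped between the groups.

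The log2 fold change of *Acta2* was 3.21 ± 0.606 (adjusted p = 0.0219), higher in 2 of 2 libraries, where 2.01% of the 8193 genes tested were called higher and 2.33% lower. Only 4 of the 10 members passed the filter on low counts, and *Des* and *Smtn* among them were not called. *Tagln* passed it only through LATS1/2-KO, so no fold or call is printed for it. The call for *Acta2* did not survive the loss of a CTL library. Without CTL 1 its adjusted p was 0.237, and without CTL 2 it was 0.0598. With fibroblasts taken from clusters its log2 fold change was 1.70 (adjusted p = 0.147).

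The make-up of the fibroblasts moved with that result. Myofibroblast markers summed to 1384 and 438 CPM in fibroblasts of CTL 1 and CTL 2 and to 8919 and 4136 CPM in those of LATS1/2-KO 1 and 2, with 5, 3, 5 and 5 of 5 detected and *Postn* the most abundant. Split by these markers and those of inflammatory fibroblasts, CTL 1 and CTL 2 held 5 and 1 myofibroblast-gated cells and LATS1/2-KO 1 and 2 held 216 and 321. Among inflammatory-gated fibroblasts alone, a comparison added after seeing the data, *Acta2* had a log2 fold change of 0.03 (adjusted p = 0.991). *Tagln* was not tested there, at 9.65 and 9.55 CPM in CTL, from 2 counts and 1 count, and 34.1 and 22.8 CPM in LATS1/2-KO, without overlap. Most fibroblasts of LATS1/2-KO 1 (57.1%) lay in a cluster other than the one that held most fibroblasts of the other 3 libraries.

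Myofibroblast-gated cells of LATS1/2-KO glands carried part of the contractile set. *Acta2* stood at 527 and 431 CPM in them and at 25.6 and 36.2 CPM in inflammatory-gated cells of the same libraries. *Tagln* stood at 429 and 277 CPM against 34.1 and 22.8 CPM, *Des* at 34.4 and 19.8 CPM against 0 and 2.61 CPM, and *Smtn* at 29.7 and 40.1 CPM against 8.53 and 5.54 CPM. Each of the 4 was higher in myofibroblast-gated cells in 2 of 2 libraries.

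The log2 differences were 3.71 ± 0.191 for *Acta2* and 3.55 ± 0.196 for *Tagln*, both past the threshold, where 13.4% of 9213 genes were called higher and 13.3% lower. *Des* and *Smtn* passed the filter only through myofibroblast-gated cells, so no fold or call is printed for them. The other 6 members did not pass the filter. In myofibroblast-gated cells *Myh11* stood at 5.47 and 7.34 CPM, *Cnn1* at 5.47 and 0.565 CPM and *Oxtr* at 0.782 and 0.565 CPM. The *Acta2* level was below that of LATS1/2-KO basal cells, at 1972 and 2495 CPM.

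Perivascular cells held *Acta2*, *Myh11*, *Cnn1*, *Tagln*, *Lmod1*, *Des* and *Synm* in every library, but too few of these cells were caught in CTL for a test between the groups. *Smtn* gave 9, 2, 0 and 9 counts, or 136, 90.3, 0 and 45.7 CPM, in CTL 1, CTL 2, LATS1/2-KO 1 and LATS1/2-KO 2, without overlap but with 3 counts or fewer in 2 of the libraries, and *Actg2* gave 0, 1, 0 and 2 counts. *Acta2* stood at 10321 and 17074 CPM in CTL 1 and CTL 2 and at 4126 and 6188 CPM in LATS1/2-KO 1 and 2. *Myh11* stood at 3763 and 3884 CPM in CTL and at 1164 and 1514 CPM in LATS1/2-KO. *Cnn1* gave 12, 6, 2 and 4 counts, or 181, 271, 23.0 and 20.3 CPM. The CTL levels of *Acta2*, *Myh11* and *Cnn1* were the higher ones, from few cells, and the difference was not tested.

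*Tagln* overlapped between the groups in perivascular cells, at 8644 and 13280 CPM in CTL and 5877 and 10785 CPM in LATS1/2-KO, and so did *Lmod1*, at 907 and 1445 against 415 and 980.5 CPM. *Des* did not overlap, with 695 and 1174 against 415 and 666 CPM, nor did *Synm*, with 212 and 181 against 138 and 168 CPM. Fibroblast markers summed to 982 and 181 CPM in perivascular cells of CTL and to 6131 and 1214 CPM in those of LATS1/2-KO 1 and 2, with 4, 2, 7 and 6 of 7 detected, *Col1a1* most abundant in LATS1/2-KO 1 and *Col3a1* in the other libraries. Myofibroblast markers summed to 75.6 and 45.2 CPM in CTL, with 1 and 1 of 5 detected, and to 3907 and 1402 CPM in LATS1/2-KO, with 4 and 5 detected and *Postn* most abundant. Their part in these values was not tested. *Oxtr* gave 1 count in CTL 2 and 0 in the other 3 libraries.

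Basal and perivascular cells, the 2 contractile classes of the gland, differed in which members they used. The comparison was made within LATS1/2-KO 1 and 2, the libraries with at least 20 cells of both. *Actg2* stood at 61.0 and 57.5 CPM in basal cells and gave 0 and 2 counts in perivascular cells. *Smtn* stood at 92.8 and 90.3 CPM in basal cells and gave 0 and 9 counts in perivascular cells. Both levels were higher in basal cells in 2 of 2 libraries, and no fold or call is printed, since both genes passed the filter only through basal cells. *Oxtr* gave 0 counts in perivascular cells of both libraries, where 3 counts would be 34.6 and 15.2 CPM, and is given no fold or call here. Perivascular cells were higher for 4 members, *Acta2* (-1.16 ± 0.132), *Myh11* (-3.01 ± 0.183), *Tagln* (-2.99 ± 0.185) and *Lmod1* (-3.46 ± 0.266), each in 2 of 2 libraries. *Des* gave 2 counts and 1 count in basal cells and 36 and 131 in perivascular cells, and *Synm* 9 and 21 against 12 and 33. These 2 passed the filter only through perivascular cells and have no fold or call here. Across all genes, 8.66% of 8604 were called higher in basal cells and 9.22% lower. *Cnn1*, with 2 and 4 counts in perivascular cells, did not pass (adjusted p = 0.0521), but did with another scaling (0.0286) and without the filter (0.0217).

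Endothelial cells held *Tagln* at 157 and 450 CPM in CTL 1 and CTL 2 and at 296 and 335 CPM in LATS1/2-KO 1 and 2, above the 11.1 to 19.1 CPM of immune cells. *Acta2* in endothelial cells stood at 59.0, 30.7, 38.5 and 19.9 CPM in the same order, in the range of immune cells, at 5.21 to 40.8 CPM, in 3 of the 4 libraries. *Actg2* gave no count in endothelial cells of any library.

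Other genes of the pathway were taken from 4 lists. Counts and medians of the lists include genes that passed the filter through 1 group only, and those among the named genes are given by level without a fold. Such genes had to differ, so the counts and medians describe the lists and are not read as a test of them. In basal cells, 17 of the 20 genes for oxytocin and Gq signalling were tested, and 2 rose and 4 fell, beside 17.0% higher and 16.2% lower over all genes. *Plcb1*, a phospholipase C that acts downstream of Gq, stood at 9.43 and 15.6 CPM in CTL and 3.71 and 1.93 CPM in LATS1/2-KO, and *Prkca*, a protein kinase C, at 71.7 and 84.9 against 50.4 and 36.7 CPM (log2 fold change -0.97, adjusted p = 0.00234). *Itpr3*, a calcium release channel, stood at 11.3 and 20.8 CPM in CTL and 49.3 and 66.4 CPM in LATS1/2-KO (1.73, 0.000337), and *Gna11*, a Gq-family α subunit, at 47.1 and 45.0 against 77.9 and 79.9 CPM (0.67, 0.0205). *Oxt*, the gene of oxytocin itself, gave 0 counts in 3 libraries and 2 in LATS1/2-KO 2. The median of the list was -0.09, close to the 0.0099 of all genes.

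Of the 16 genes for myosin and control of its light chain, all tested, 4 rose and 5 fell in basal cells, with a median of -0.11, beside the same 17.0% and 16.2% over all genes. *Mylk*, the kinase that starts smooth muscle contraction, stood at 426 and 506 CPM in CTL and 64.7 and 84.9 CPM in LATS1/2-KO (-2.74, 2.20e-10). *Ppp1r14a*, an inhibitor of myosin phosphatase, stood at 22.6 and 20.8 against 2.12 and 3.86 CPM. The non-muscle myosin gene *Myh9* went the other way, from 213 and 199 CPM to 361 and 399 CPM (0.77, 0.000972), as did the small GTPase gene *Rhob* (92.4 and 111 CPM, then 218 and 171 CPM, 0.82, 0.00204).

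Most genes of the list for thin filaments and dense bodies were higher in basal cells of LATS1/2-KO. Of its 22 genes, all tested, 13 rose and 3 fell, with a median of 0.70, beside 17.0% higher and 16.2% lower over all genes. *Tagln2*, a transgelin of non-muscle cells, stood at 198 and 173 CPM in CTL and 869 and 669 CPM in LATS1/2-KO (1.94, 6.44e-08), and *Fhl2*, a LIM-domain gene, at 18.9 and 32.9 against 129.9 and 75.3 CPM (1.85, 0.000159). Among the lower genes, *Palld*, the palladin gene, stood at 272 and 333 against 215 and 182 CPM (-0.72, 0.00207), and *Synpo2*, which encodes an actin-binding Z-disc protein, at 13.2 and 22.5 against 2.12 and 1.16 CPM.

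Of 10 genes for regulators of the contractile programme, 7 were tested in basal cells and 2 fell, with a median of -0.35, beside 16.2% lower over all genes. *Srf*, the gene of serum response factor, which binds CArG boxes in smooth muscle genes, stood at 37.7 and 55.4 CPM in CTL and 29.7 and 26.2 CPM in LATS1/2-KO (-0.86, 0.0186). *Mef2c*, another transcription factor of muscle genes, stood at 52.8 and 57.2 against 8.48 and 11.2 CPM (-2.56, 1.73e-06). *Myocd*, the coactivator myocardin, gave 0 counts in 3 libraries and 1 in LATS1/2-KO 2. The rises and falls in basal cells in these 4 lists are by the same edgeR test, and each gene named with a fold moved in 2 of 2 libraries.

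In luminal cells the shares over all genes were 30.6% higher and 28.4% lower. Of 22 thin filament genes, 17 rose and 1 fell (median 1.11), led by *Cald1*, the caldesmon gene, at 22.7 and 16.4 CPM in CTL and 869 and 913 CPM in LATS1/2-KO (5.29, 0.000130), and *Tpm2*, a tropomyosin gene, at 7.33 and 9.58 against 183 and 194 CPM (4.26, 0.000111). The only one that fell was *Lpp*, at 126 and 132 CPM in CTL and 121 and 129 CPM in LATS1/2-KO (-0.26, 0.0286), whose plain levels overlap. Of the 16 myosin genes, 6 rose and none fell (median 0.11), with *Myl12a* (1.14, 0.000480) and *Myl9* (0.83, 0.0298) named by the rule. Of 20 oxytocin and Gq genes, 5 rose and 8 fell (median -0.06), with *Atp2b4* (1.81, 0.00184) higher and *Itpr2* (-1.84, 0.000385) and *Plcb4* (-1.56, 0.00454) lower.

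Among 8 regulators tested in luminal cells, 3 rose and 3 fell (median 0.46), beside the same 30.6% and 28.4%. *Tead1*, a partner of YAP and TAZ, stood at 29.7 and 28.3 CPM in CTL and 125 and 126 CPM in LATS1/2-KO (1.90, 0.000166), and *Foxf1* gave 2 counts, 1 count, 67 and 40 counts. *Klf4*, a repressor of smooth muscle genes, stood at 606 and 609 against 270.2 and 332 CPM (-1.23, 0.000894), and *Srf* at 61.2 and 53.5 against 37.9 and 50.02 CPM (-0.60, 0.0190). In fibroblasts 1 of 16 myosin genes, *Myh9* (2.13, 0.00960), and 1 of 21 thin filament genes tested, *Flna* (1.80, 0.0259), rose, and none of the 17 oxytocin and Gq genes or the 8 regulators tested was called, beside 2.01% higher and 2.33% lower over all genes.

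Between basal and perivascular cells of LATS1/2-KO, 1 of 16 myosin genes was higher in basal cells and 9 were lower (median -1.06, against 0.11 over all genes), where 8.66% of all genes were called higher and 9.22% lower. *Ppp1r12b*, a subunit of myosin phosphatase, was among the lower genes (-3.79, 3.16e-07). Of 18 oxytocin and Gq genes tested, 1 was higher in basal cells and 6 were lower (median -0.45). Of the 22 thin filament genes, 5 were higher and 7 lower (median 0.24), and of 7 regulators tested none was higher and 1 was lower (median -1.01). No test compared the lists with each other.

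The genes most like *Oxtr* in pattern were sought by Pearson correlation of log2(CPM + 1) over 24 sums, the 6 classes in each of the 4 libraries, among 8816 genes. The 8 highest were *Wif1* (r = 0.829), *1500015O10Rik* (0.792), *Il17b* (0.786), *Trp63* (0.784), *Hnrnpr* (0.780), *Col9a2* (0.775), *Col4a6* (0.770) and *Actg2* (0.767). *Il17b* and *Trp63* are among the basal markers of the gate. The correlation does not measure how large the differences between classes are. *Hnrnpr* had a mean of 134 CPM in basal and 86.5 CPM in luminal cells of CTL. *Col4a6* had 86.7 and 19.3 CPM there, and 16.9 and 16.03 CPM in basal and luminal cells of LATS1/2-KO. The sums of 1 library share its depth and free RNA, and the classes differ in depth, so r is a description. *Actg2* was the one member among the 8, although its basal levels overlapped between CTL and LATS1/2-KO and those of *Oxtr* did not, while *Cnn1* came at 0.678 and *Acta2* at 0.387.

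The 24 sums include basal cells of both groups, so a lower level in LATS1/2-KO basal cells follows in part from how these genes were picked. *1500015O10Rik* had a mean of 1204 ± 73.3 CPM (SD, n = 2) in CTL and 12.1 ± 6.16 CPM in LATS1/2-KO. *Wif1*, which encodes a secreted WNT inhibitor, had 104 ± 4.96 CPM in CTL and 18.4 ± 0.938 CPM in LATS1/2-KO. *Trp63*, the master transcription factor of basal epithelium, had 120.0 ± 27.6 CPM in CTL and 69.4 ± 3.75 CPM in LATS1/2-KO, and *Il17b* had 174 ± 40.6 and 113.0 ± 12.1 CPM.

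The members lie apart in the genome. *Oxtr* spans chr6:112473683-112489943 on the minus strand of GRCm38 (GENCODE M21), *Acta2* chr19:34241090-34255590 (minus), *Lmod1* chr1:135324807-135368065 (plus) and *Smtn* chr11:3517523-3540612 (minus). *Oxtr* and *Actg2* share chromosome 6, *Cnn1* and *Tagln* chromosome 9, and *Lmod1* and *Des* chromosome 1.

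Promoters from 250 bases before to 50 bases after the start were in the RefSeq table (GRCm38.p6) for 7 of the 10 members, *Oxtr*, *Acta2*, *Cnn1*, *Lmod1*, *Des*, *Smtn* and *Synm*. The strict CArG consensus (2 C, then 6 letters that are each A or T, then 2 G), which serum response factor binds, matched in 0 of these 7 windows on either strand and in 1.63% of 32851 promoters in the table. CATTCC, the MCAT motif bound by TEAD factors, or its reverse complement GGAATG, matched in 3 of 7, those of *Acta2*, *Lmod1* and *Smtn*, at 146, 130 and 222 bases before the start, and in 14.7% of all promoters. CArG elements with a mismatch were not searched for, and the windows, that of *Acta2* included, can hold them. A match is a description of letters, and no match says only that these letters are not in this window. The *Oxtr* promoter, chr6:112489776-112490075 (minus strand), and the 3 with a match, *Acta2* at chr19:34255324-34255623 (minus), *Lmod1* at chr1:135324563-135324862 (plus) and *Smtn* at chr11:3539243-3539542 (minus), are shown 5′ to 3′, with the motif in capitals, as those of the receptor and of contractile genes that fell in basal cells.
Oxtr: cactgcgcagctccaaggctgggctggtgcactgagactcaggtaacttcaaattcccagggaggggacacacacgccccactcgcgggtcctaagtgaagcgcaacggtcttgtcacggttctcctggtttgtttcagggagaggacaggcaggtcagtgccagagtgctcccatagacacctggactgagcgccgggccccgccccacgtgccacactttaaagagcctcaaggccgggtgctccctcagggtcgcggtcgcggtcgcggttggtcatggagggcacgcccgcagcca
Acta2: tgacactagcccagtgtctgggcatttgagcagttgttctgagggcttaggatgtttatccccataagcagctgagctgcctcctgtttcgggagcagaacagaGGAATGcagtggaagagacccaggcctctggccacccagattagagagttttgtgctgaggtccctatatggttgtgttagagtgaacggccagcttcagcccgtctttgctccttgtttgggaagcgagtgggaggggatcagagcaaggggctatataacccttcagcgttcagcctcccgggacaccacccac
Lmod1: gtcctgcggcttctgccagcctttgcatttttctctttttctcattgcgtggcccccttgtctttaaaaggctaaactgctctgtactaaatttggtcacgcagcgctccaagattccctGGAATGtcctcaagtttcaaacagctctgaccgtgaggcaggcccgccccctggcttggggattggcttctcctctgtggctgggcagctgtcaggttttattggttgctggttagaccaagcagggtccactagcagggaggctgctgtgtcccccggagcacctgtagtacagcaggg
Smtn: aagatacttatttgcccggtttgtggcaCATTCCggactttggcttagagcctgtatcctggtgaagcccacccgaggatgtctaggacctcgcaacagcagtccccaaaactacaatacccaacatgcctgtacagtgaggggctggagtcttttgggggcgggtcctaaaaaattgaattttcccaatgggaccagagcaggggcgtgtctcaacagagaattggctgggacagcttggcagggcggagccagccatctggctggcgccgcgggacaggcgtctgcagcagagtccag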

How the data were processed

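Gene counts of 4 libraries of 10x Genomics 3′ sequencing were used as deposited by the authors, who had aligned the reads, counted UMIs per gene and cell barcode and kept 20324 barcodes. Per the file headers this was done with Cell Ranger 6.1.2, while the submitters' processing notes name Cell Ranger 3.1.0 and mm10. Both are given here, and which was used was not resolved.

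Cells with over 500 genes and under 20% mitochondrial UMIs were kept, 18200 in all. Each cell was classed by a score from marker genes that include no member (score of at least 0.2, lead of at least 0.05 over the next class). The members are rows with the 10 named symbols, and 58 duplicated symbols in the tables include none of them. UMIs were summed per class and library, and a class was tested only where every library held 20 cells.

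Tests used edgeR 4.0.16 in R 4.3.3 (quasi-likelihood, TMM scaling, filterByExpr, Benjamini-Hochberg over all genes tested, threshold 0.05). Cells for shares were thinned to 2000 UMIs, and cells with fewer UMIs were left out. Levels are plain CPM. Clusters (scanpy 1.11.5, 20 components, 3000 genes, resolution 0.8) left out member and pathway genes. An alternative test used DESeq2 1.42.0, and edgeR loads limma 3.58.1. Other tools were Python 3.11.15, numpy 2.4.6, scipy 1.17.1, pandas 2.3.3 and matplotlib 3.10.9, with anndata 0.12.19 and igraph 0.11.9. A gene that passes the low-count filter only through the group where it is high had to differ, so which groups pass alone was worked out after the tests for every member and pathway gene in each comparison. A level of 0 was compared through a floor of 3 counts. Gene positions are from GENCODE M21 and promoters from a RefSeq table.

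The members and lists were chosen with earlier results of these data known, so *Oxtr* in basal cells was given no test. The pathway lists hold 20 genes for oxytocin and Gq signalling, 16 for myosin and its light chain, 22 for thin filaments and dense bodies and 10 regulators. In each list and comparison, up to 2 genes called higher and 2 called lower with the largest fold changes were picked among those whose TMM-scaled levels do not overlap between the groups. Not every gene picked is named in the text. *Rgs4* in luminal cells and most of those between basal and perivascular cells are not, nor are those of comparisons whose lists are not described.

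Of the alternatives, 4 were chosen after seeing the data: basal cells with a low luminal score, luminal cells with a low basal score, inflammatory-gated fibroblasts only, and crossed replicate numbers. The score limit was first tried at 0.1, which left 16 basal cells in LATS1/2-KO 1, and was then set to 0.2 before the fit. A rule that leaves 1 cluster of 310 cells unnamed was applied after a first run of the cluster alternative had been seen, in which *Des* in luminal cells was called. Scrublet called 84 cells as doublets, and the 676 highest scores were removed as an alternative. Perivascular cells were not compared between CTL and LATS1/2-KO by test.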

Additional observations from a re-analysis of the deposited data

Results flagged for a closer look

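The difference of the log2 fold change between LATS1/2-KO and CTL, basal minus luminal, was -3.34 for *Acta2*, -3.903 for *Cnn1*, -1.637 for *Tagln* and -1.168 for *Smtn*. Each of the 4 genes fell in basal cells and rose in luminal cells. The luminal rise of *Acta2* was kept in every alternative, and those of *Cnn1*, *Tagln* and *Smtn* no longer passed without CTL 1, at log2 fold changes of 0.80, 0.33 and 0.39. In secretory luminal cells the fitted value of *Tagln* was -0.11, with plain levels of 23.2 and 30.8 CPM in CTL and 31.8 and 31.5 CPM in LATS1/2-KO, and in hormone-sensing luminal cells it was 1.22.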

How the results depend on the processing

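The 2932 genes called in basal cells became 1365 with DESeq2, 1943 at equal depth per sum, and 2078 to 2392 without 1 library. In luminal cells 8598 became 5361 in hormone-sensing cells and 6385 to 7387 without 1 library. In fibroblasts 356 became 869 without the low-count filter, 195 at equal depth, 631 in inflammatory-gated cells only and 12 to 624 without 1 library. Between *EYFP*-positive and *EYFP*-negative cells 5658 became 1464 after thinning to 2000 UMIs. With the replicate block, which pairs libraries by number, the calls were 3035 in basal, 7625 in luminal and 756 in fibroblast cells, and with crossed pairs 8596 in luminal cells. A member is counted as the same where direction and call are those of the first fit, and *Oxtr* in basal cells, which has no call, where its value lies within 1 SE. The tallies below include members that passed the filter through 1 group only. Their calls were fixed by the filter, so agreement there is no sign of stability. Among them are *Synm* in basal cells and *Tagln* in fibroblasts. Over members and settings, 141 of 144 basal results stayed the same, 1 was weaker (*Smtn* without CTL 2) and 2 moved (*Oxtr*, -3.54 without LATS1/2-KO 1 and -4.07 without LATS1/2-KO 2). In luminal cells 124 of 152 stayed the same, 20 were weaker, 7 stronger and 1 reversed, *Tagln* in secretory cells at -0.1065. *Oxtr* there passed with DESeq2 (adjusted p = 0.0202), without CTL 2, in secretory cells and with crossed pairs (0.00386), *Lmod1* in secretory cells (0.01996), and *Des* with the highest Scrublet scores removed (0.0444) and with cluster classes. In fibroblasts 40 of 47 stayed the same and 7 were weaker. In the *EYFP* comparison 34 of 38 stayed the same and 4 were weaker, *Tagln* thinned and with at least 2 *EYFP* UMIs and *Myh11* without the filter and with the stricter gate. Between basal and perivascular cells 18 of 20 stayed the same, with *Cnn1* passing in the other 2. *Oxtr*, *Actg2*, *Smtn*, *Des* and *Synm*, which are given no call there, are among the 20. The difference between basal and luminal cells kept 69 of 70, basal against luminal cells in CTL 70 of 70, and the myofibroblast split 12 of 12. *Actg2* is among the 70 in CTL, and *Des* and *Smtn* are among the 12, though none of them is given a call there. Not run were all alternatives for perivascular cells between CTL and LATS1/2-KO, and for basal against perivascular cells the stricter gate (12 cells in LATS1/2-KO 1) and leaving out a library.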

Other observations

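*Cald1* and *Tpm2*, thin filament genes that are not members, rose in luminal cells of LATS1/2-KO. Basal cells made up 3.20% and 3.95% of cells in CTL 1 and CTL 2 and 7.34% and 8.40% in LATS1/2-KO 1 and 2, and shares of sorted live cells depend on what else was caught.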
